A study of Mus musculus with 11 samples.

Results

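Semaphorins and their receptors were followed as 10 genes, 6 ligands (Sema3a, Sema3c, Sema3d, Sema3e, Sema4d and Sema7a), the neuropilins Nrp1 and Nrp2, and the plexins Plxna1 and Plxnb1. The members were taken by gene symbol from the merged count table, where all 10 were found among 22600 genes and all 10 passed the filter on low counts that left 16496 genes for testing. RNA was sequenced from whole distal tibiae of C57BL6/SJL mice that were 24 weeks old and fed ad libitum, with 4 Control mice (genotype label BMAd-WT) and 7 BMAd-DTA mice, 1 library per mouse. BMAd-DTA mice express diphtheria toxin A from the ROSA locus in cells that recombine a floxed stop cassette, and the Cre comes from an Adipoq allele that is switched on by Osterix-driven FLPo, so that it acts mainly in bone marrow adipocytes. Per the study's methods all mice, Controls included, carry the Osterix-FLPo and Cre alleles, because mice with this Cre have low adiponectin. The study's text adds that a small subset of marrow adipogenic lineage precursors appears to recombine too, that some adipocytes remain in the distal tibia, and that incomplete recombination is a possible reason. The comparison asked which RNAs of the bone differ when marrow adipocytes are depleted.

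Semaphorins are secreted or membrane-bound guidance proteins that were found through their effect on growing axons and also act on vessels, immune cells and bone. Secreted class 3 semaphorins bind a neuropilin, which pairs with a plexin that carries the signal into the cell, whereas Sema3e and the membrane-bound semaphorins can bind plexins directly. In bone, Sema3a made by osteoblast-lineage cells and nerves restrains osteoclasts through Nrp1, Sema4d made by osteoclasts restrains osteoblasts through Plxnb1, and Plxna1 acts with Trem2 and Tyrobp in osteoclast formation.

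In BMAd-DTA bones, RNA of the ligands Sema3d and Sema7a and the receptor Nrp2 lay above every Control in 7 of 7 libraries. The same held for 293 of all genes tested (1.78%). The margin above the highest Control was narrow for Sema7a and Nrp2. Fitted group levels of Sema3d, Sema7a and Nrp2 were 1.49-fold to 1.65-fold of Control, while Nrp1 averaged 0.842-fold of Control. The ratio of Nrp1 to Nrp2 in BMAd-DTA libraries was 0.519-fold of the Control ratio (exact permutation adjusted p = 0.00909), but the pair was chosen with the levels of both genes known, which the adjustment does not cover. No member passed the adjusted threshold of 0.05 on its own in edgeR, where 13 of 16496 genes (0.0788%) did. At an unadjusted p under 0.05 in edgeR, 7 of 10 members were named (6 higher, 1 lower), beside 2708 of all genes tested (16.4%). DESeq2 with default settings called 4 of 10 members, all higher (Sema3d, Sema7a, Nrp2 and Sema4d), beside 845 of 15583 genes (5.42%).

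The 4 members with these patterns lie in separate parts of the genome, and their promoters differ in composition. The promoter windows are shown because Sema3d, Sema7a and Nrp2 did not overlap between genotypes and were higher in BMAd-DTA bones. Of all genes tested, 1.78% did the same. Nrp1 is shown because it enters the neuropilin ratio. RefSeq sequences on GRCm38.p6 (the assembly of mm10) covered 9 of 10 members, without Plxna1, and each window runs from 250 bases before to 50 bases after the annotated start on the strand of the gene. Capitals mark matches, read on the printed strand or as the reverse complement, to the GC box GGGCGG, the letters CCAAT of the CCAAT box, the TATA box TATAAA, the RUNX core ACCACA, the AP-1 site TGACTCA and the E-box CACGTG, none of which contains another.
Sema3d: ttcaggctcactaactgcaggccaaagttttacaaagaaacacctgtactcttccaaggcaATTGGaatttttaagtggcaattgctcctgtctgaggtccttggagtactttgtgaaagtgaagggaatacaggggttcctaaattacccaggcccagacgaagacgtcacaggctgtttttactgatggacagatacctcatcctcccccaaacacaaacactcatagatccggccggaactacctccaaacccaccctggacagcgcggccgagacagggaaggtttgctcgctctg
Sema7a: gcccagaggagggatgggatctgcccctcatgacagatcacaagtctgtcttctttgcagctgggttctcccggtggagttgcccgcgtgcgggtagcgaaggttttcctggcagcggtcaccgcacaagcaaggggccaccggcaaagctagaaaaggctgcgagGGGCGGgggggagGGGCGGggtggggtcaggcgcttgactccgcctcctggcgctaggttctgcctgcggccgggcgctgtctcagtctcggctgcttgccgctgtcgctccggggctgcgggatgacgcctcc
Nrp2: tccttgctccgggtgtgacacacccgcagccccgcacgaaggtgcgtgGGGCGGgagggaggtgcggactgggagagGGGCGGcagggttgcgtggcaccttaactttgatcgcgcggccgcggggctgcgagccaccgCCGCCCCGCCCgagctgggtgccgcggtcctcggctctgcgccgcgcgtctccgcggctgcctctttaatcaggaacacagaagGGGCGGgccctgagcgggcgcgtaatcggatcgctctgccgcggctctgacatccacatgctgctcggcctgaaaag
Nrp1: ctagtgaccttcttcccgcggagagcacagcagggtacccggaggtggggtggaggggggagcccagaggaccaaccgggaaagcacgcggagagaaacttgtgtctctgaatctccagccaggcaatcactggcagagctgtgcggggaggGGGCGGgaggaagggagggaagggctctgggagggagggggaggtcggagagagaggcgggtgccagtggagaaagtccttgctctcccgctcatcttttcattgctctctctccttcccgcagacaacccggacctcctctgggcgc
The Sema3d window (chr5:12382916-12383215, plus strand) was 49.7% GC with 8 CpG and held 1 CCAAT box, which 37.4% of 32851 promoters of the same length also held. The Sema7a window (chr9:57939862-57940161, plus strand) was 67.3% GC with 23 CpG and 2 GC boxes. The Nrp2 window (chr1:62703067-62703366, plus strand) was 70.7% GC with 37 CpG and 5 GC boxes, of which 1 pair overlaps, and the Nrp1 window (chr8:128358823-128359122, plus strand) was 64.0% GC with 14 CpG and 1 GC box. A GC box stood in 35.7% of all promoters, whose median composition was 52.7% GC with 7 CpG. No window of the 9 members, which include 3 for Sema4d, held TATAAA (13.6% of all promoters) or TGACTCA (5.2%), while Sema3a and 1 Sema4d window held ACCACA (16.8%) and Sema3e held CACGTG (7.15%). A match here describes letters, and the data hold no measure of binding.

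The class 3 members share a neighbourhood. In the GENCODE M21 annotation of mm10, Sema3d (chr5:12383385-12588948), Sema3a (chr5:13125414-13602565), Sema3e (chr5:14025276-14256689) and Sema3c (chr5:17574281-17730268) lie in this order on the plus strand, with 536.5, 422.7 and 3318 kb between neighbours. The RefSeq start of Sema3d lies upstream of its gene model in M21, and that of Sema3a lies inside it. Levels are given in CPM, the reads of a gene scaled to a common library total. The genotypes did not overlap in Sema3d and overlapped in Sema3a, Sema3e and Sema3c, and the difference between these genes was not tested.

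Sema3d, a secreted ligand that guides vessels and nerves, measured 14.6, 20.3, 16.0 and 22.2 CPM in Control replicates 1 to 4. In the 7 BMAd-DTA libraries it ran from 23.8 to 39.9 CPM, with a median of 28.2. The groups did not overlap, with all 7 BMAd-DTA libraries above the highest Control, as 293 of all genes tested (1.78%) also were. The difference in level was 0.73 on the log2 scale (SE 0.15, 95% interval 0.40 to 1.06), with edgeR adjusted p = 0.0675. Leaving out 1 library at a time moved the edgeR adjusted p between 0.0487, without Control replicate 4 (the highest Control), and 0.234, without Control replicate 1. Only 1 of these fits passed the threshold.

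Sema3a, a secreted ligand of Nrp1 known in bone for restraining osteoclasts, measured 20.01, 13.4, 9.22 and 15.8 CPM in the Control libraries and 8.26 to 17.3 CPM in BMAd-DTA libraries, with a median of 12.8. The BMAd-DTA values lay within the Control range except 1 that lay below it. The log2 difference was -0.21 (95% interval -0.66 to 0.25, edgeR adjusted p = 0.684). It was -0.017 without Control replicate 1, the highest Control, and -0.37 without Control replicate 3, the lowest.

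Sema3c, a secreted ligand best known in the development of the heart's outflow tract, measured 12.6, 6.54, 9.57 and 5.96 CPM in the Control libraries and 4.87 to 14.9 CPM in BMAd-DTA libraries, with a median of 8.55. Sema3e, which signals through Plxnd1 in vessels, was the lowest member, at 5.29, 1.77, 3.90 and 2.64 CPM in the Control libraries and 2.41 to 5.60 CPM in BMAd-DTA libraries, with a median of 3.79. The groups overlapped widely for both. Their log2 differences had intervals that reach far to either side of 0, from -0.49 to 0.66 for Sema3c and from -0.44 to 0.79 for Sema3e (edgeR adjusted p = 0.913 and 0.815). The sign of Sema3c turned without Control replicate 2 (-0.03), Control replicate 4 (-0.06) or BMAd-DTA replicate 7 (-0.07), and that of Sema3e without Control replicate 2 (-0.04).

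The membrane-bound ligands were the most abundant of the 6. Sema7a, which is anchored to the membrane by a lipid and binds Plxnc1 and an integrin, measured 57.9, 46.9, 73.1 and 48.0 CPM in the Control libraries. In BMAd-DTA libraries it ran from 73.3 to 108 CPM, with a median of 80.8. Every BMAd-DTA library lay above every Control, by a narrow margin between Control replicate 3 and the lowest BMAd-DTA library. The log2 difference was 0.57 (SE 0.13, 95% interval 0.28 to 0.87, edgeR adjusted p = 0.0727). Leaving out 1 library at a time moved the edgeR adjusted p between 0.0373, without Control replicate 3, and 0.234, without Control replicate 1. Only 1 of these fits passed the threshold.

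Sema4d, a transmembrane ligand that osteoclasts use to restrain osteoblasts, measured 116, 124, 138 and 125 CPM in the Control libraries. In BMAd-DTA libraries it ran from 135 to 168 CPM, with a median of 151. The groups overlapped, since 5 of 7 BMAd-DTA libraries lay above every Control and the other 2 lay below Control replicate 3. The log2 difference was 0.26 (SE 0.08, 95% interval 0.09 to 0.42, edgeR adjusted p = 0.119, DESeq2 adjusted p = 0.0468). A heat map of ossification genes that the study drew from these libraries includes Sema4d, so its direction is not independent evidence.

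**Figure D1:**
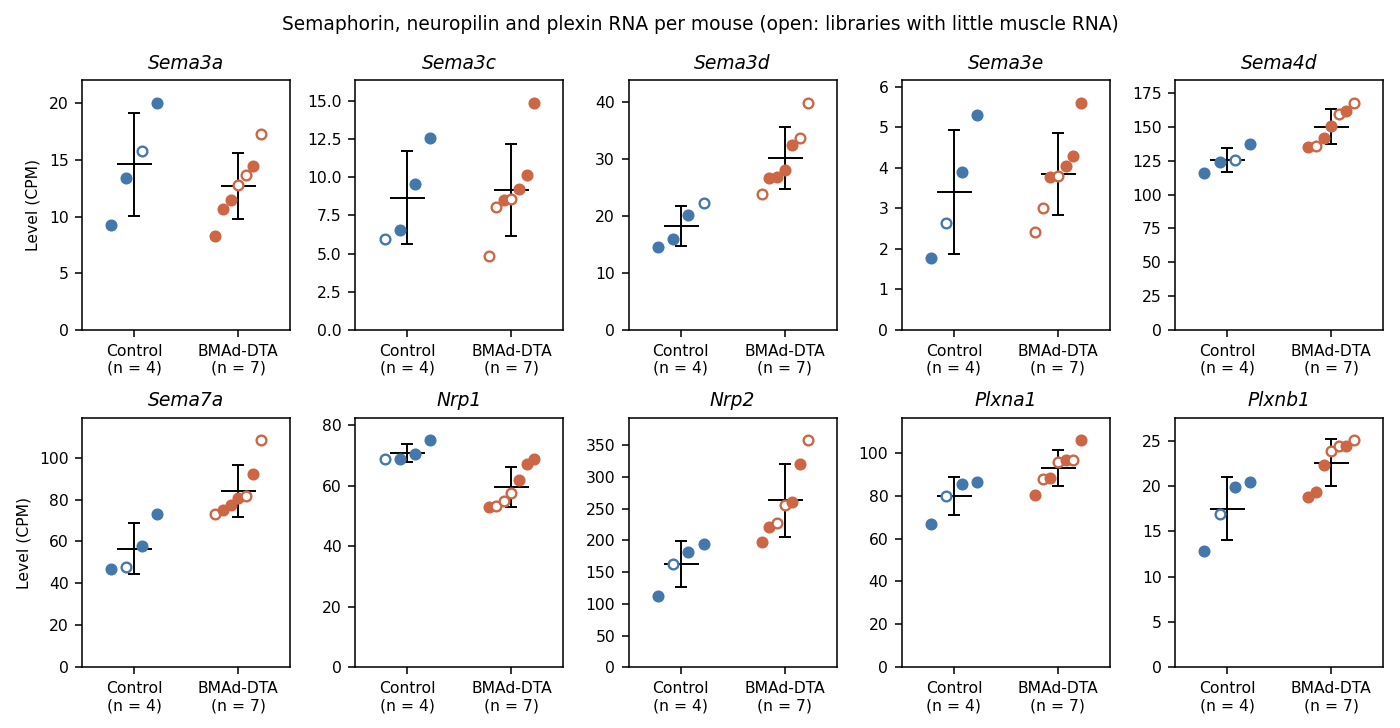
Level of each member in CPM (vertical axis, from 0) in the 4 Control and 7 BMAd-DTA libraries, 1 point per mouse placed in order of value, with bars for the mean and SD and open points for the 4 libraries with little skeletal muscle RNA. Sema3d, Sema7a and Nrp2 do not overlap between genotypes, and 6 of 7 BMAd-DTA libraries lie below every Control for Nrp1.

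Among the receptors, the neuropilins differed in opposite directions. Nrp2, a co-receptor for class 3 semaphorins and for the lymphatic growth factor VEGF-C, measured 112, 182, 195 and 163 CPM in the Control libraries. In BMAd-DTA libraries it ran from 198 to 358 CPM, with a median of 256, so that all 7 lay above every Control, the lowest by a small margin. The log2 difference was 0.69 (SE 0.18, 95% interval 0.31 to 1.07), with edgeR adjusted p = 0.0905 and DESeq2 adjusted p = 0.00411.

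Nrp1, the co-receptor of Sema3a and of VEGF-A, measured 70.5, 68.9, 75.0 and 68.8 CPM in the Control libraries, a spread of 2.94 CPM (SD) around a mean of 70.8. In BMAd-DTA libraries it ran from 52.9 to 68.9 CPM, with a median of 57.8. All but 1 BMAd-DTA library lay below every Control, and the exception, BMAd-DTA replicate 1, lay between the 2 lowest Controls. The log2 difference was -0.25 (SE 0.08, 95% interval -0.42 to -0.07, edgeR adjusted p = 0.149, DESeq2 adjusted p = 0.0756). Of all genes tested, 171 (1.04%) had every BMAd-DTA library below every Control, and Nrp1 was not among them.

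A ratio within a library does not depend on how that library is scaled, so 3 ratios between members were compared with an exact permutation test (two-sided, 330 arrangements of the genotype labels, p adjusted over the 3). The log2 ratio of Nrp1 to Nrp2 was -0.67, -1.40, -1.38 and -1.25 in Control replicates 1 to 4. In BMAd-DTA libraries it ran from -2.70 to -1.84, with a median of -1.97. The groups did not overlap. The means were -1.17 ± 0.34 (SD, n = 4) and -2.12 ± 0.30 (SD, n = 7), a difference of -0.95, with exact permutation p = 0.00303, the smallest these arrangements can give, and adjusted p = 0.00909. The pair joins a gene already seen higher with a gene already seen lower, so the p describes these libraries and is not independent evidence. Among the 7 libraries rich in muscle RNA alone (3 Control and 4 BMAd-DTA) the difference was -0.83, with exact permutation adjusted p = 0.0857, from the smallest unadjusted p that 35 arrangements can give.

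The ratio of Sema3a to Sema4d, ligands with opposed roles in bone, had log2 values of -2.52, -3.21, -3.88 and -2.98 in the Control libraries and from -4.08 to -3.27 in BMAd-DTA libraries, with a median of -3.53. The groups overlapped, with a difference of -0.44 (exact permutation p = 0.115, adjusted p = 0.115). That value moved in either direction with single Controls. Without Control replicate 3, the lowest Control, the difference was -0.68, with exact permutation adjusted p = 0.0125. Without Control replicate 1, the highest, it was -0.23, with exact permutation adjusted p = 0.358. The plexin ratio, Plxna1 to Plxnb1, averaged 2.19 ± 0.14 (SD, n = 4) on the log2 scale in Control and 2.04 ± 0.12 (SD, n = 7) in BMAd-DTA libraries, a difference of -0.15 (exact permutation p = 0.0939, adjusted p = 0.115), with 3 of 7 below every Control. Without Control replicate 1 this difference was -0.10, and among the muscle-rich libraries it was -0.06.

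**Figure D2:**
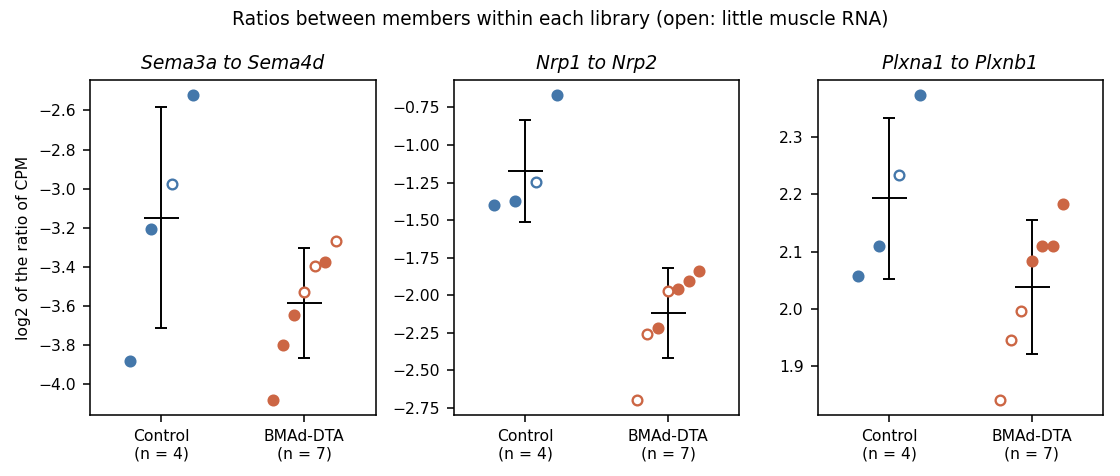
The log2 ratio of CPM between pairs of members (vertical axis, own range in each panel) in each of 4 Control and 7 BMAd-DTA libraries, with bars for the mean and SD and open points for libraries with little muscle RNA. The Nrp1 to Nrp2 ratios lie between -1.40 and -0.67 in Control and between -2.70 and -1.84 in BMAd-DTA libraries, while the other ratios overlap.

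The plexins differed less. Plxna1, the signalling partner of neuropilins, measured 67.0, 85.4, 86.3 and 79.9 CPM in the Control libraries and 80.2 to 106 CPM in BMAd-DTA libraries, with a median of 95.6. Of the 7 BMAd-DTA libraries 6 lay above every Control, and the log2 difference was 0.22 (SE 0.09, 95% interval 0.04 to 0.41, edgeR adjusted p = 0.217). Plxnb1, the receptor of Sema4d, measured 12.8, 20.4, 19.9 and 16.9 CPM in the Control libraries and 18.8 to 25.0 CPM in BMAd-DTA libraries, with a median of 23.9. Here 5 of 7 lay above every Control, and the log2 difference was 0.37 (SE 0.13, 95% interval 0.08 to 0.65, edgeR adjusted p = 0.179). Both groups of values overlapped, and Control replicate 1 was the lowest library for each plexin, without which the log2 differences were 0.15 for Plxna1 and 0.24 for Plxnb1.

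Levels can be set against each other between genes only per length, here as CPM per kb of exon. In Control bones Sema7a (17.1 ± 3.68, SD, n = 4), Sema4d (16.4 ± 1.17) and Nrp2 (13.8 ± 3.06) led, with means whose SDs overlap, followed by Plxna1 (8.80 ± 0.985) and Nrp1 (7.24 ± 0.300). Sema3d (2.13 ± 0.416), Plxnb1 (1.83 ± 0.364), Sema3c (1.21 ± 0.427) and Sema3a (1.05 ± 0.326) formed a lower run in which neighbours overlap, and Sema3e (0.366 ± 0.165) was lowest. In BMAd-DTA bones Sema7a (25.5 ± 3.72, SD, n = 7), Nrp2 (22.2 ± 4.83) and Sema4d (19.6 ± 1.71) led again, and Nrp2 stood above Sema4d by less than its SD. Nrp1, at 6.09 ± 0.668 CPM per kb, again followed Plxna1, at 10.3 ± 0.914, and Sema3d (3.52 ± 0.637) stood clear of Plxnb1 (2.36 ± 0.267). The class 3 members other than Sema3d were near or below 1 CPM per kb in these bones, with Sema3c at 1.29 ± 0.420, Sema3a at 0.913 ± 0.209 and Sema3e at 0.414 ± 0.108.

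For 8 members the 2 genes with the most similar profile are given, found by the root-mean-square difference of centred log2 CPM over the 11 libraries, among 12972 genes. They were Tspan17 and Avpi1 for Sema3d (0.134 and 0.150 on the log2 scale, where Sema3d itself had an SD of 0.422) and Boc and Mrc2 for Sema7a (0.0968 and 0.116, SD 0.353). Nrp1 was followed by Il6st, the shared receptor subunit of interleukin-6 family cytokines, and Dgat2, an enzyme of triglyceride synthesis (0.0684 and 0.0797, SD 0.171). Sema4d was followed by Tgfbr2, a receptor of TGF-beta, and Pcdhgc3 (0.0604 and 0.0663, SD 0.163), and Plxna1 by Snx8 and Pi4k2a (0.0843 and 0.0876, SD 0.169). The distances were larger for Sema3a (Itga9 and Tpmt, 0.161 and 0.197, SD 0.360), Sema3c (Rph3al and Osr2, 0.228 and 0.235, SD 0.434) and Sema3e (Alg14 and Egr1, 0.207 and 0.256, SD 0.457).

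Beyond the members, 52 further genes of semaphorin signalling were listed by role, of which 49 passed the filter. In edgeR 1 of 49 passed the adjusted threshold and rose, and none fell, beside 0.0788% of all genes. At an unadjusted p under 0.05 in edgeR 12 of 49 were higher and 1 lower, beside 16.4% of all genes in either direction. DESeq2, fitted to all 52, called 6 higher (Sema3b, Sema4g, Sema5a, Plxna2, Dpysl3 and Farp2) and none lower, beside 5.42% of all genes. The log2 differences were positive for 29 and negative for 20, with a median of 0.07, beside a median of 0.00 and 50.4% positive over all genes tested. For the 10 members the count was 8 positive and 2 negative, with a median of 0.24.

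The gene that rose was Dpysl3, a collapsin response mediator that carries semaphorin signals to the cytoskeleton. It measured 60.8 ± 9.20 CPM (SD, n = 4) in Control, between 48.6 and 70.8, and 110 ± 11.2 CPM (SD, n = 7) in BMAd-DTA libraries, between 101 and 125. All 7 lay above every Control, as in 293 of all genes tested (1.78%), with a log2 difference of 0.85 (SE 0.10, edgeR adjusted p = 0.0205). No call was left among the 49 when replicate 1 or 2 of the Control group or replicate 1 or 6 of the BMAd-DTA group was taken out, and in those 4 fits edgeR called 0 of all genes tested, so the loss was not particular to Dpysl3. Without Control replicate 3 there were 3 (Dpysl3, Farp2 and Arhgef11), and without Control replicate 4 there were 2 (Dpysl3 and Chl1). Dpysl2, its relative, had a log2 difference of 0.19 (edgeR adjusted p = 0.497) and Crmp1 one of -0.28 (edgeR adjusted p = 0.705), while Dpysl4 and Dpysl5 were too low to test.

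Among the other class 3 ligands, Sema3b lay between 3.86 and 8.13 CPM in Control and between 8.53 and 13.8 CPM in BMAd-DTA libraries. Every BMAd-DTA library lay above every Control, as in 1.78% of all genes tested. The log2 difference was 0.79 (SE 0.20, edgeR adjusted p = 0.089). Sema3f, at -0.09, was the lowest of the 3. Of the class 4 to 6 semaphorins 10 of 11 were tested, all but Sema5b, with log2 differences from 0.75 for Sema4g (edgeR adjusted p = 0.12) down to -0.20 for Sema6b. Sema5a, a transmembrane ligand, did not overlap between groups, at 55.7 to 67.9 CPM in Control and 69.4 to 103 CPM in BMAd-DTA libraries (log2 difference 0.36, edgeR adjusted p = 0.12). Sema6d, the ligand of Plxna1 in osteoclasts, had a log2 difference of 0.15 (SE 0.06, edgeR adjusted p = 0.239).

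The other 7 plexins ranged from Plxna2 (log2 difference 0.64, SE 0.20, edgeR adjusted p = 0.133) to Plxnb3 (-0.18), and 4 of 7 were negative. Plxnd1, the receptor of Sema3e in vessels, averaged 345 ± 26.9 CPM (SD, n = 4) in Control and 342 ± 38.3 CPM (SD, n = 7) in BMAd-DTA libraries, and Plxnc1, the receptor of Sema7a, had a log2 difference of -0.07 (edgeR adjusted p = 0.691). Of 10 further receptors and co-receptors, Chl1, a cell adhesion partner of neuropilins, had the highest log2 difference (0.77, SE 0.33, edgeR adjusted p = 0.263) and Met, a partner of Plxnb1, the lowest (-0.31, edgeR adjusted p = 0.504). Trem2 and Tyrobp, which act with Plxna1 in osteoclast precursors, had log2 differences of 0.53 (edgeR adjusted p = 0.16) and 0.16 (edgeR adjusted p = 0.326). Of 16 intracellular mediators, Farp2 is an exchange factor that Plxna1 uses after Sema3a binding. It lay between 8.60 and 24.9 CPM in Control and between 25.6 and 41.0 CPM in BMAd-DTA libraries (log2 difference 0.89, SE 0.23, edgeR adjusted p = 0.0906). Every BMAd-DTA library lay above every Control, as in 1.78% of all genes tested. Arhgef12, an exchange factor bound by B-type plexins, had the only negative difference of the 49 with an unadjusted p under 0.05 (-0.30, SE 0.09, edgeR adjusted p = 0.133), while Rhoa (-0.04) and Rac1 (-0.03), the GTPases themselves, lay near 0.

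**Figure D3:**
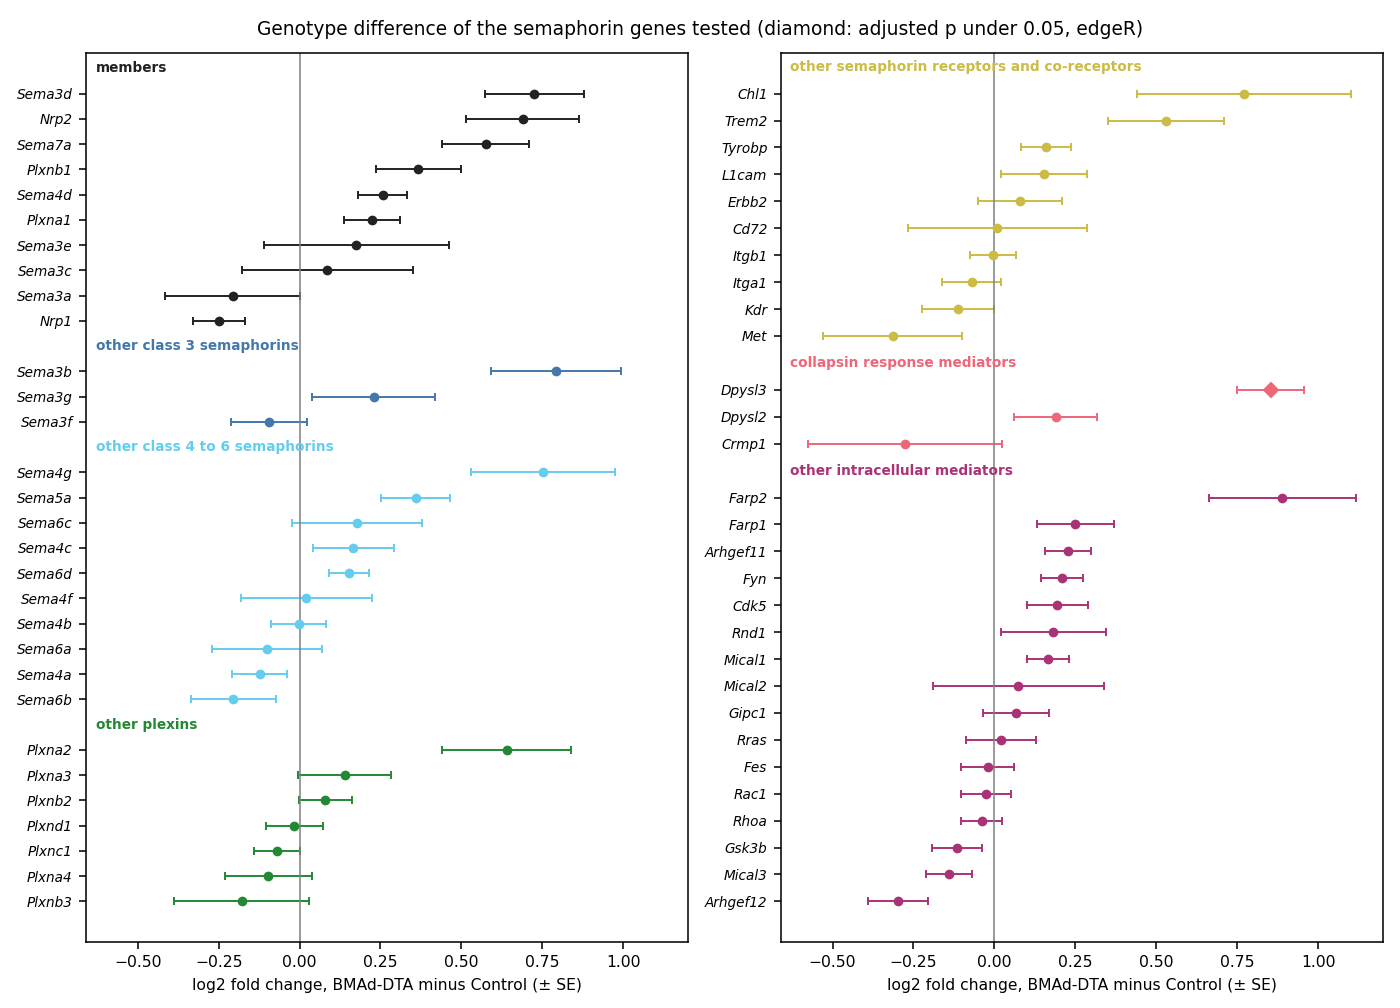
Difference in level between genotypes (horizontal axis, log2 fold change, BMAd-DTA minus Control, bars for the SE) for the 10 members and the 49 further genes tested, grouped by role, with a diamond for an edgeR adjusted p under 0.05. Dpysl3, at 0.85, is the single diamond, and Sema3d, Nrp2 and Sema7a lead the members at 0.73, 0.69 and 0.57.

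Markers of several cell types moved with genotype, and in whole bone fewer cells of a type and less RNA per cell cannot be told apart. All 10 osteoblast and osteocyte markers had a positive log2 difference (median 0.90), with an unadjusted p under 0.05 in edgeR for 10 of 10. After adjustment edgeR called none and DESeq2 called 7. Over all genes these shares were 16.4% (unadjusted p), 0.0788% (edgeR) and 5.42% (DESeq2). The summed level of the 10 markers ran from 1957 to 7782 CPM in Control and from 9755 to 20860 CPM in BMAd-DTA libraries. All 8 osteoclast markers were positive (median 1.04), 5 with an unadjusted p under 0.05 in edgeR and 1 called by DESeq2. They summed to 1335 to 2881 CPM in Control and 1808 to 4665 CPM in BMAd-DTA libraries. All 6 chondrocyte markers tested were positive (median 0.57), 3 with an unadjusted p under 0.05 in edgeR and 1 called by DESeq2. These summed to 224 to 585 and 846 to 1239 CPM. All 8 adipocyte markers were negative (median -1.24), 5 with an unadjusted p under 0.05 in edgeR. After adjustment edgeR called 1 of them lower and DESeq2 called 1. Adipocyte markers summed to 605 to 1311 CPM in Control and 216 to 832 CPM in BMAd-DTA libraries, so RNA of these markers was present in every library. The cells that it came from were not tested. The part of these cell types in the levels of Sema3d, Sema7a, Nrp2, Sema4d and Nrp1 was not tested.

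Of the other lists, 7 of 7 erythroid markers were negative (median -0.50), 6 with an unadjusted p under 0.05 in edgeR and 4 called lower by DESeq2. They summed to 3425 to 6933 CPM in Control and 3615 to 5664 CPM in BMAd-DTA libraries. All 8 B lymphocyte and all 8 T lymphocyte markers were positive (medians 0.44 and 0.39), at 408 to 926 and 96.9 to 154 CPM in Control and 683 to 1606 and 134 to 190 CPM in BMAd-DTA libraries. In edgeR 1 B lymphocyte and 5 T lymphocyte markers had an unadjusted p under 0.05, and DESeq2 called none. Endothelium (median -0.07), which carries Nrp1 and Plxnd1, summed to 676 to 730 CPM in Control and 542 to 755 CPM in BMAd-DTA libraries. Marrow stroma (0.02), nerve and Schwann cell (0.20), neutrophil (-0.02), macrophage (0.00) and megakaryocyte (-0.15) lists had medians within 0.20 of 0. All 11 skeletal muscle markers were negative (median -0.98), none of them with an unadjusted p under 0.05 in edgeR. Skeletal muscle markers summed to between 180 and 1347 CPM in 7 libraries (3 Control, 4 BMAd-DTA) and to between 17.9 and 25.7 CPM in 4 (Control replicate 4 and BMAd-DTA replicates 2, 3 and 5), where Myh1 was at 0 in a library. With the muscle score as a covariate the log2 differences were 0.67 for Sema3d, 0.59 for Sema7a, 0.65 for Nrp2 and -0.22 for Nrp1, and among the 7 muscle-rich libraries alone they were 0.75, 0.45, 0.61 and -0.19.

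**Figure D4:**
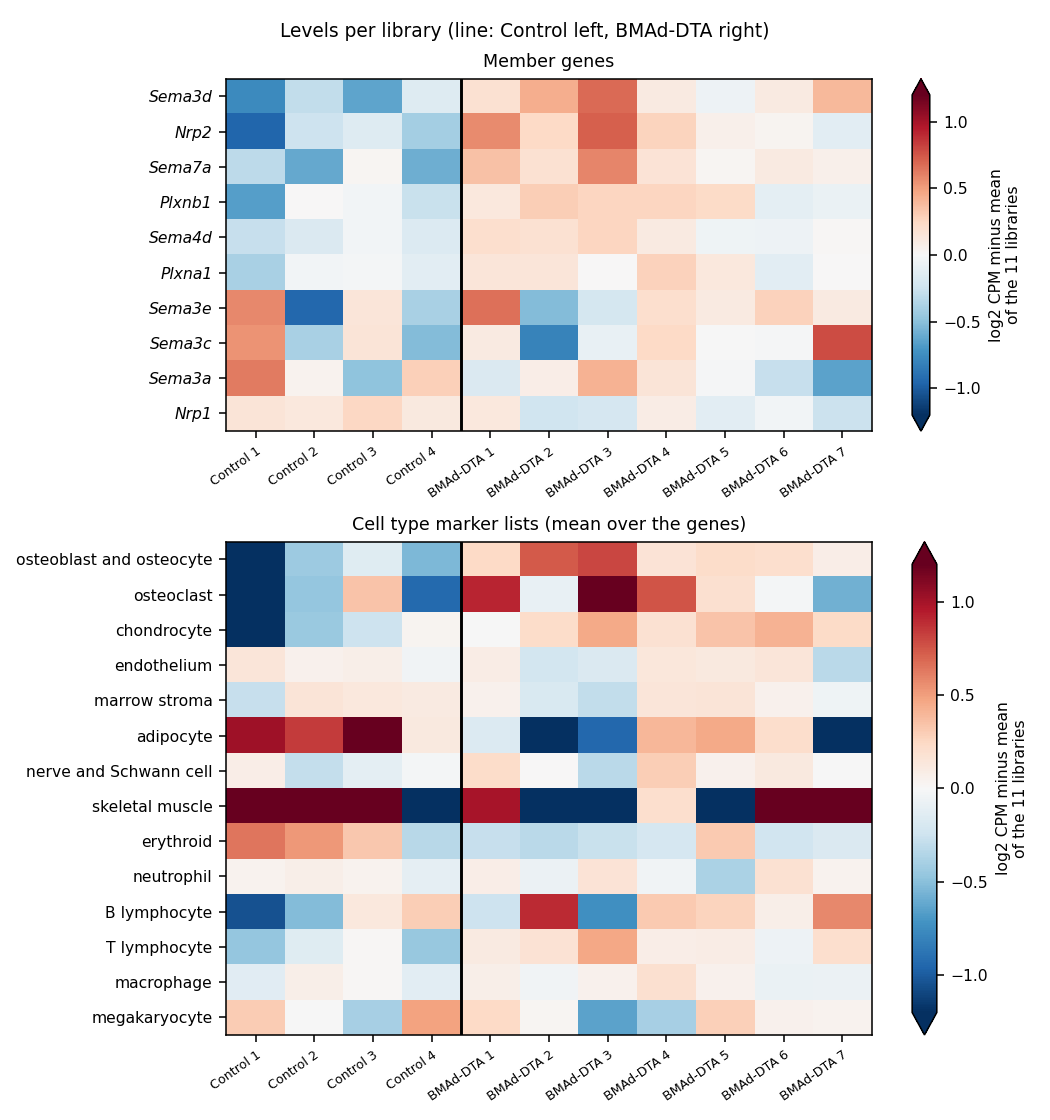
Log2 CPM of each member (upper panel) and mean log2 CPM of each marker list (lower panel) in each library, minus the mean of the 11 libraries, with Control left and BMAd-DTA right of the black line and colours that saturate at the ends of the bar. Control replicate 1 is low for Sema3d, Nrp2, Plxnb1 and the bone and cartilage lists, and BMAd-DTA replicate 3 is high for Sema3d, Nrp2, Sema7a and the bone lists.

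Library by library, Control replicate 1 had the lowest Sema3d, Nrp2, Sema4d, Plxna1 and Plxnb1 and the highest Sema3a of all Controls, and also the lowest osteoblast and osteocyte markers. BMAd-DTA replicate 3 had the highest Sema3d, Sema7a, Nrp2 and Sema4d. Without Control replicate 1 the Nrp1 to Nrp2 difference was -0.78 and without BMAd-DTA replicate 3 it was -0.85, both with an exact permutation adjusted p under 0.05 (0.025 and 0.0143). The groups still did not overlap, so both rest on the smallest unadjusted p their arrangements can give, and neither is a separate check.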

How the data were processed

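Stranded paired-end libraries were sequenced from the whole distal tibia, 4 from Control and 7 from BMAd-DTA animals. Per the labels and methods, the authors checked reads with FastQC 0.11.9, aligned them to mm10 with STAR and deposited raw counts per gene and library, which they compared with DESeq2. The annotation release was not given in the sources used here. The merged table held 16969529 to 18637663 counts per library. In the deposited per-library count files 9.1% to 15.1% of reads were unmapped and 6.68% to 9.07% multimapping, and these lines stayed out of library totals. Counts were filtered with filterByExpr, scaled by TMM and tested by quasi-likelihood F in edgeR 4.0.16 (R 4.3.3) with Benjamini-Hochberg adjustment over 16496 genes. The test was checked only on counts simulated from its own fitted model, so the check does not cover departures of these libraries from that model. DESeq2 1.42.0 and limma-voom (limma 3.58.1) were alternatives, as were other scalings, filters, a muscle covariate, counts without globin and mitochondrial genes, and leaving out each library. Subsets by muscle RNA (marker score of 2 on the log2 CPM scale) were added after seeing the data. Log2 CPM used a prior count of 2. Coordinates and union exon lengths came from GENCODE M21, which matched 99.9% of 22600 genes by identifier. Genes named by rule were the 10 members, genes called in edgeR, the highest and lowest log2 fold change of each role list and the 2 nearest profiles per member, which are not reported here for Nrp2 and Plxnb1; the other genes named were chosen after their values were seen. The members and lists were chosen with earlier results of these data known. Separate mice served as replicates, and libraries of a group differed far beyond sampling noise (chi-square per gene of at least 18.3). That value is an average over genes and was not computed for the members. Mean counts per library ran from 65.2 for Sema3e to 4001 for Nrp2, and the part of counting noise in each member's spread was not tested.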

Additional observations from a re-analysis of the deposited data

How the results depend on the processing

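With all libraries edgeR called 0 of 10 members. Leaving out 1 library gave 0 to 1 calls, from Sema7a without Control replicate 3 and Sema3d without Control replicate 4. DESeq2 called 4 members and 6 of the wider genes, beside 845 of 15583 genes (5.42%). Of the wider genes edgeR called 1 with all libraries, and leaving out a library gave 0 to 3. Over all genes edgeR called 13, and 292 without Control replicate 3, 89 without Control replicate 4 and 0 without Control replicate 1 or 2 or BMAd-DTA replicate 1 or 6. The 4 muscle-poor libraries gave 0 calls among the wider genes, but hold 1 Control library, assumed to vary like the BMAd-DTA libraries, so this says little. The Nrp1 to Nrp2 difference ranged from -1.02 to -0.78 when a library was left out. It stayed past the threshold each time, but groups that do not overlap still do not overlap after a library is left out. Each of these fits therefore rests on the smallest unadjusted p its arrangements can give and is not a separate check. Among the 7 muscle-rich libraries the difference was -0.83, where 35 arrangements cannot give a smaller p than the adjusted 0.0857 rests on. The Sema3a to Sema4d difference ranged from -0.68 to -0.23 and passed the threshold without Control replicate 3, and the Plxna1 to Plxnb1 difference from -0.20 to -0.10. Leaving out a library moved Sema3a between -0.37 and -0.017, Sema3c between -0.072 and 0.32 and Sema3e between -0.037 and 0.47, with a negative sign for Sema3c in 3 fits (-0.027, -0.058, -0.072) and for Sema3e in 1 (-0.037). Across the alternatives 210 fold changes of members kept their direction and side of the threshold, 6 passed it (4 in DESeq2) and 4 changed sign. Other scalings gave medians over all genes between -0.01 and 0.00. The cause of these changes was not tested. No paired analysis was possible because the labels give the genotypes no shared replicate numbers.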

Other observations

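Reads on the strand opposite to the members were few. They made up at most 3.02% of the reads of either strand at a member in any library, the highest share being at Plxnb1, and none differed between genotypes after adjustment over the 10 members (two-sided exact permutation test). The lowest exact permutation p was 0.00909 for Sema3d (adjusted p = 0.0909), with a mean of 0.75 opposite-strand reads per Control library and 0 in each BMAd-DTA library. Nrp2 had 4.75 and 7.86 such reads per library on average in Control and BMAd-DTA bones (exact permutation p = 0.0394, adjusted p = 0.197).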
